A study of Mus musculus with 4 samples.

Results

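The genes of mitochondrial ribosomal proteins were followed in mouse embryonic fibroblasts (MEFs) with and without Pf1. Members were all genes whose single platform symbol starts with Mrpl or Mrps and a digit, 76 of the 18193 genes measured, read by 156 probe sets. The symbols put 47 genes in the large subunit (Mrpl) and 29 in the small subunit (Mrps). The cells were Pf1 -/- lines 2 and 4, set against Pf+/+ lines 5 and 6 as controls, all with the prefix 7706, at passage 2 to 3, with 1 array a line. All 4 lines were primary torso cells of embryos 13.5 or 14.5 days post-coitus, kept at 6% oxygen, and which day or passage belongs to which line is not given. Pf1 is the product of Phf12, a chromatin protein that works with Sin3 corepressor complexes, and the study concerns its part in keeping nucleoli intact. The labels name no promoter, Cre or clone, and do not say that each line is a separate embryo, so p-values here measure the spread between these lines.

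Mitochondria carry their own ribosome, which makes a small set of inner-membrane proteins of the respiratory chain. Its RNAs come from mitochondrial DNA, but every protein is encoded in the nucleus, made on cytosolic ribosomes and imported. Many of these proteins descend from those of bacterial ribosomes, and the others have no counterpart among bacterial ribosomal proteins. The symbols do not always match the structure: Mrps18a and Mrps30 sit in the large subunit, and Mrps36 is a subunit of the alpha-ketoglutarate dehydrogenase complex.

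Values are log2, relative to the median of the probe set over the 4 arrays, averaged over the probe sets of a gene. They hold differences between lines and no level, so members cannot be ranked by abundance and a marker of fibroblasts cannot be shown to be present or absent. With 4 arrays, this centring also gives the 2 middle values of a probe set the same size and opposite signs. Differences are knockout minus wild type, each with its standard error (SE) from a limma fit over all genes, for n = 2 lines each, and a gene was called at a Benjamini-Hochberg adjusted p under 0.05. Fewer cells of a type and less RNA per cell cannot be told apart in these bulk samples.

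The genotype labels were checked on Phf12. One of its probe sets read -0.37 and -0.41 in knockout lines 2 and 4, against 0.56 and 0.37 in wild-type lines 5 and 6 (difference -0.86 ± 0.11 SE, limma adjusted p = 0.0213), while the other differed by 0.012. The mean of both, the measure used for the members, differed by -0.42 ± 0.09 and was not called (limma adjusted p = 0.0504). The sources used here do not place these probes relative to the deletion. Some other cell-type programmes moved with genotype by limma, which called 12.2% of all genes. Of 10 smooth muscle markers 8 were higher and 0 lower (median 0.79). Of 10 epithelial markers 4 were higher and 1 lower (median 1.23), and of 10 fibroblast markers 1 was higher and 5 lower (median -0.72). Medians were nearer 0 for skeletal muscle (0.06, 2 of 10 higher and 0 lower) and endothelial markers (-0.03, 1 of 10 higher and 1 lower). Relative to the wild-type mean, the smooth muscle median was 0.81 and 0.77 in knockout lines 2 and 4, against -0.10 and 0.10 in wild-type lines 5 and 6. The epithelial median was 1.02 and 1.30 in knockout lines 2 and 4, against -0.12 and 0.12 in wild-type lines 5 and 6. The fibroblast median was -0.90 and -0.59 in knockout lines 2 and 4, against 0.08 and -0.08 in wild-type lines 5 and 6. Of 10 macrophage markers limma called 0 (0 at an unadjusted p under 0.05), and all 10 were lowest in wild-type line 6. The part of these markers in the results below was not tested.

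Across both subunits, 8 of 76 members passed the test: Mrpl3, Mrpl20, Mrpl22, Mrps12 and Mrps18c rose in the knockout, and Mrpl23, Mrpl24 and Mrps16 fell. That is 10.5% of the members, against 12.2% of all genes (5.21% higher and 6.95% lower), so the share of called members was close to that of the array as a whole. Mrpl3, Mrpl20 and Mrpl22 differed by at least 1.5-fold. The other 68 members did not pass. Differences ran from -0.57 to 0.90, with a standard deviation over members of 0.27, against 0.39 over all genes.

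The printed stretches are the 120 bases before the annotated start of the large-subunit genes that passed the test, shown because these genes went in opposite directions. They come from RefSeq (GRCm38.p6) and read 5′ to 3′ on the strand of the gene. Capitals mark letters that match a searched motif (ETS, NRF1 or E-box, given further on), on either strand. The first 3 genes rose and the last 2 fell. Called small-subunit genes also went in both directions and are not printed. Of these, Mrps16, which fell, holds the ETS letters 74 bases before an annotated start.
Mrpl3 (chr9:105053148-105053267, strand +): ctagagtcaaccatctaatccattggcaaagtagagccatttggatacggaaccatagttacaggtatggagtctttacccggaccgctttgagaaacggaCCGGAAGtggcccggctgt
Mrpl20 (chr4:155802758-155802877, strand +): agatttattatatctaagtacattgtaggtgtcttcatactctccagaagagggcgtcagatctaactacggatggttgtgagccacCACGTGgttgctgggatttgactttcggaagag
Mrpl22 (chr11:58171544-58171663, strand +): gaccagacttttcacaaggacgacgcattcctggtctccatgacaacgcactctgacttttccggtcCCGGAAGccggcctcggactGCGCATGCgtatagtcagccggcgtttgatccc
Mrpl23 (chr7:142532912-142533031, strand +): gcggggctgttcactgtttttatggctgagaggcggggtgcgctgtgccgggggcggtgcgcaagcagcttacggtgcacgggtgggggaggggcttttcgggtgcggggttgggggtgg
Mrpl24 (chr3:87919424-87919543, strand +): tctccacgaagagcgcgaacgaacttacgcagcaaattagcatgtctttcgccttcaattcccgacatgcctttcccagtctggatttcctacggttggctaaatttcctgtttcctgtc

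In the large subunit, 3 of 47 genes rose, 2 fell and 42 did not pass. Those called were 10.6% of the subunit, against 12.2% of all genes. The median difference was 0.15, against -0.0027 over all genes, and 33 members had a positive and 14 a negative difference. At an unadjusted p under 0.05, 15 were higher and 3 lower, 18 in all, a level that 29.5% of all genes reached. The knockout lines lay above both wild-type lines for 26 members and below both for 7, where over all genes 28.7% lay above, 29.5% below and 58.2% on either side.

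**Figure D1:**
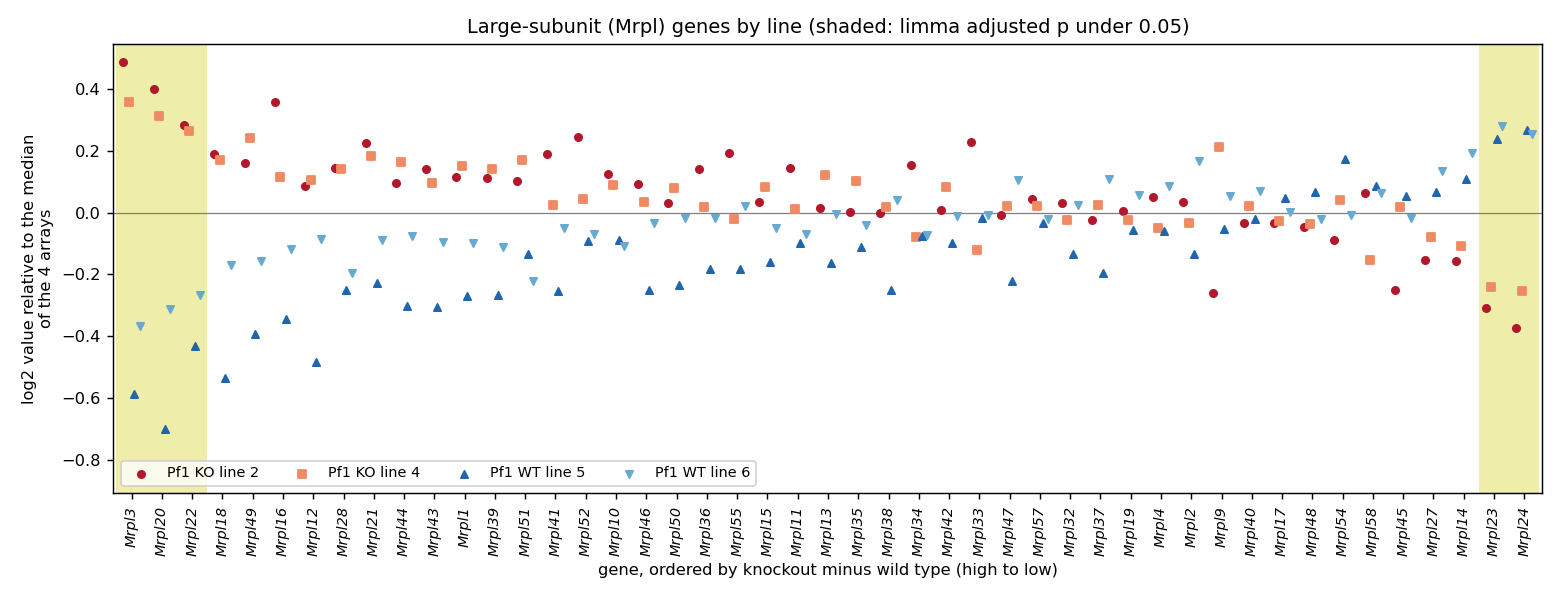
Log2 value of each large-subunit gene, relative to the median of the 4 arrays, in Pf1 knockout lines 2 and 4 (circles, squares) and wild-type lines 5 and 6 (triangles up, down), 1 array a line; genes run from the highest to the lowest difference and shading marks limma adjusted p under 0.05. Wild-type line 5 is the lowest of the 4 lines for 32 of 47 genes, and the called genes stand at both ends.

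Mrpl3, a core protein near the site where peptide bonds are formed, showed the largest difference of all members. It stood at 0.49 and 0.36 in knockout lines 2 and 4, against -0.59 and -0.37 in wild-type lines 5 and 6. Both knockout lines were high, and it was 1.86-fold higher (0.90 ± 0.11 SE, limma adjusted p = 0.0184). All 4 of its probe sets passed the test over all probe sets, with differences from 0.79 to 1.08, where 8.32% of probe sets were called.

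Mrpl20 belongs to a family that binds the large ribosomal RNA early in assembly in bacteria. It stood at 0.40 and 0.31 in knockout lines 2 and 4, against -0.70 and -0.31 in wild-type lines 5 and 6. Both knockout lines were high and close together, whereas the wild-type lines were 0.39 apart. The gene was 1.82-fold higher (0.86 ± 0.15 SE, limma adjusted p = 0.0311), and the difference was 0.67 without wild-type line 5.

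Mrpl22, Mrpl23 and Mrpl24 belong to protein families that lie at the tunnel through which the new chain leaves the ribosome. Mrpl22 stood at 0.28 and 0.26 in knockout lines 2 and 4, against -0.43 and -0.26 in wild-type lines 5 and 6, and was 1.54-fold higher (0.62 ± 0.09 SE, limma adjusted p = 0.0251). Mrpl23 stood at -0.31 and -0.24 in the knockout lines, against 0.24 and 0.28 in the wild-type lines, and was 1.45-fold lower (-0.53 ± 0.08 SE, limma adjusted p = 0.0258). Mrpl24 stood at -0.37 and -0.25 in the knockout lines, against 0.27 and 0.25 in the wild-type lines, and was 1.49-fold lower (-0.57 ± 0.09 SE, limma adjusted p = 0.0251). Mrpl22 was thus high, and Mrpl23 and Mrpl24 low, in both knockout lines. Each of these genes has 1 probe set.

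The next smallest p-values in the large subunit belonged to genes that were higher but missed the threshold. Mrpl28, of a bacterial family, stood at 0.14 and 0.14 in knockout lines 2 and 4, against -0.25 and -0.19 in wild-type lines 5 and 6 (0.36 ± 0.08 SE, limma adjusted p = 0.0503). Mrpl49, found only in mitochondrial ribosomes, differed by 0.47 ± 0.11 (limma adjusted p = 0.0567). Mrpl21 differed by 0.36 ± 0.09 (limma adjusted p = 0.0661). These genes lie just outside the threshold, with Mrpl28 nearest to it. Quantile normalization brought all 3 across and raised the calls over all genes from 2212 to 2664. Mrpl14 had the most negative difference of the large subunit outside the called genes (-0.28 ± 0.08 SE, limma adjusted p = 0.0937).

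The stalk of the large subunit recruits the factors that drive elongation. Mrpl12, which also binds the mitochondrial RNA polymerase, stood at 0.09 and 0.10 in knockout lines 2 and 4, against -0.48 and -0.09 in wild-type lines 5 and 6 (0.38 ± 0.15 SE, limma adjusted p = 0.169). Wild-type line 5 alone was low, and the other lines lay between -0.09 and 0.10. Mrpl11, at the base of the stalk, differed by 0.16 ± 0.09 (limma adjusted p = 0.314), and Mrpl10, of the family that anchors the stalk, by 0.21 ± 0.08 (limma adjusted p = 0.166). Mrpl10 is named after its values were seen.

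In the small subunit, 2 of 29 genes rose, 1 fell and 26 did not pass. The share called was 10.3%, against 12.2% of all genes. The median difference was 0.07, with 17 positive and 12 negative. At an unadjusted p under 0.05, 5 were positive and 3 negative, a level that 29.5% of all genes reached. The knockout lines lay above both wild-type lines for 9 members and below both for 6. That is 51.7% on either side, against 58.2% of all genes. No small-subunit gene reached 1.5-fold, and differences ran from -0.49 to 0.46.

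**Figure D2:**
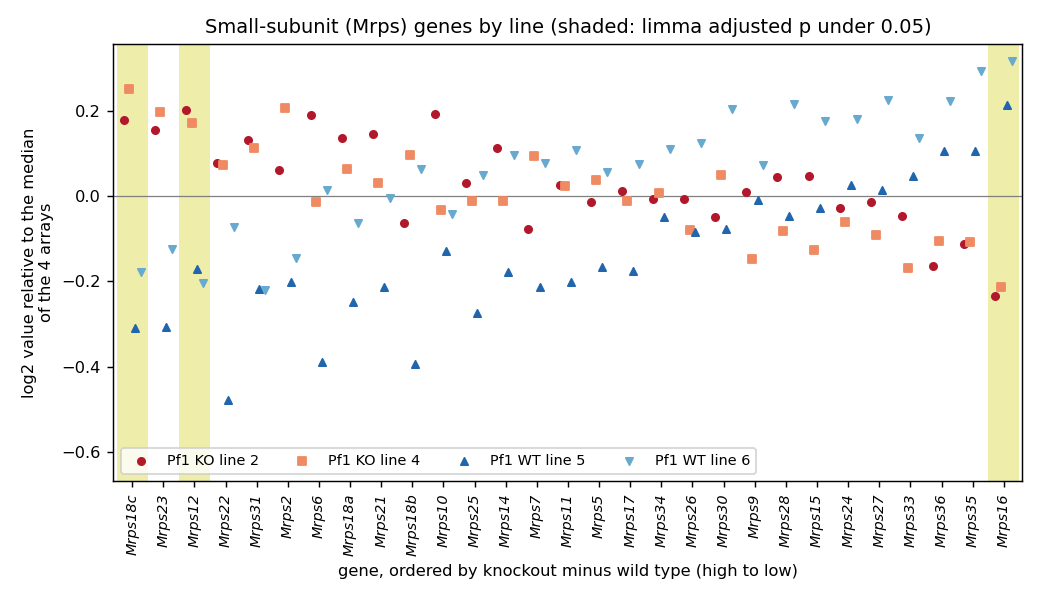
Log2 value of each small-subunit gene, relative to the median of the 4 arrays, in Pf1 knockout lines 2 and 4 (circles, squares) and wild-type lines 5 and 6 (triangles up, down), 1 array a line; genes run from the highest to the lowest difference and shading marks limma adjusted p under 0.05. Wild-type line 5 is lowest for 18 of 29 genes and wild-type line 6 highest for 16.

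Mrps18c, a member of the S18 family, stood at 0.18 and 0.25 in knockout lines 2 and 4, against -0.31 and -0.18 in wild-type lines 5 and 6. It was 1.37-fold higher (0.46 ± 0.09 SE, limma adjusted p = 0.0403). Its relatives differed less from wild type: Mrps18a by 0.26 ± 0.10 (limma adjusted p = 0.173) and Mrps18b by 0.18 ± 0.17 (limma adjusted p = 0.559). Mrps18b, named after its values were seen, overlapped between the genotypes, and Mrps18a did not.

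Mrps12 forms part of the decoding centre, where bacterial mutations give streptomycin resistance. It stood at 0.20 and 0.17 in knockout lines 2 and 4, against -0.17 and -0.20 in wild-type lines 5 and 6. The lines of a genotype differed by 0.03 in each pair, and the gene was 1.30-fold higher (0.37 ± 0.08 SE, limma adjusted p = 0.0462). The 1 probe set of Mrps12 and that of Mrps18c passed in the fit over genes, but in the fit over all probe sets their limma adjusted p was 0.0707 and 0.0569.

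Mrps16, of a bacterial family in which human mutations cause a failure of mitochondrial translation, was the small-subunit gene that fell. It stood at -0.23 and -0.21 in knockout lines 2 and 4, against 0.21 and 0.32 in wild-type lines 5 and 6, and was 1.40-fold lower (-0.49 ± 0.09 SE, limma adjusted p = 0.0319). Mrps35 (-0.31 ± 0.10 SE, limma adjusted p = 0.11) and Mrps36 (-0.30 ± 0.09, limma adjusted p = 0.0945) had the next most negative differences and did not pass. Mrps31 (0.34 ± 0.08, limma adjusted p = 0.0542), Mrps23 (0.39 ± 0.10, limma adjusted p = 0.0656) and Mrps2 (0.31 ± 0.09, limma adjusted p = 0.0982) did not pass on the positive side. Mrps30 differed by -0.06 ± 0.12 (limma adjusted p = 0.795), with wild-type line 6 at 0.20 and the other lines between -0.08 and 0.05.

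By ancestry, all 8 called genes belonged to the 44 members with a bacterial family, 5 of 28 in the large and 3 of 16 in the small subunit, 18.2% of the class against 12.2% of all genes. Limma called 0 of the 29 members found only in mitochondrial ribosomes, where an unadjusted p under 0.05 was reached by 7 higher and 1 lower, against 13 higher and 4 lower among the 44, a level that 29.5% of all genes reached. The median differences were 0.14 for the bacterial families and 0.10 for the others. After quantile normalization 8 of the bacterial families were higher and 3 lower, and 1 of the others (Mrpl49) was higher. Calls over all genes also rose, from 2212 to 2664. Mrpl55, Mrps28 and Mrps36 were not classed. Whether the classes differ was not tested.

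Wild-type line 5 was often the lowest line over these genes, as over some other lists. It was the lowest of the 4 lines for 50 of 76 members (65.8%), against 30.4% of all genes, and for 97 of the 156 probe sets. It was also lowest for 67.1% of 73 respiratory chain genes, 71.4% of 14 translation factors and 9 of 10 smooth muscle markers. The share was 58.3% of 12 genes of mitochondrial DNA upkeep and transcription and 42.3% of 26 assembly factors. It was 40% of 5 genes listed as ribosomal proteins with other names and 36.4% of 11 regulators. For 18 mitochondrial tRNA synthetases it was 22.2%, and for 42 cytosolic ribosomal proteins 19.0%. The median of line 5 minus line 6 was -0.14 for Mrpl and -0.20 for Mrps genes. Set against line 6 alone, the median difference of the knockout mean was 0.08 for Mrpl genes (29 of 47 positive) and -0.07 for Mrps genes (10 of 29 positive). Set against line 5 alone, it was 0.22 (38 of 47) and 0.21 (21 of 29). Thus the small-subunit median changed sign with the wild-type line used. With 1 line left out, differences ran from 0.79 to 1.01 (Mrpl3), 0.67 to 1.05 (Mrpl20) and 0.54 to 0.71 (Mrpl22). They ran from 0.39 to 0.52 (Mrps18c) and from 0.36 to 0.39 (Mrps12). For the genes that fell they ran from -0.57 to -0.50 (Mrpl23), -0.63 to -0.51 (Mrpl24) and -0.54 to -0.44 (Mrps16). Such fits leave 1 array in a genotype, and their calls are given in the last section. The cause of the low values of line 5 was not tested.

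**Figure D3:**
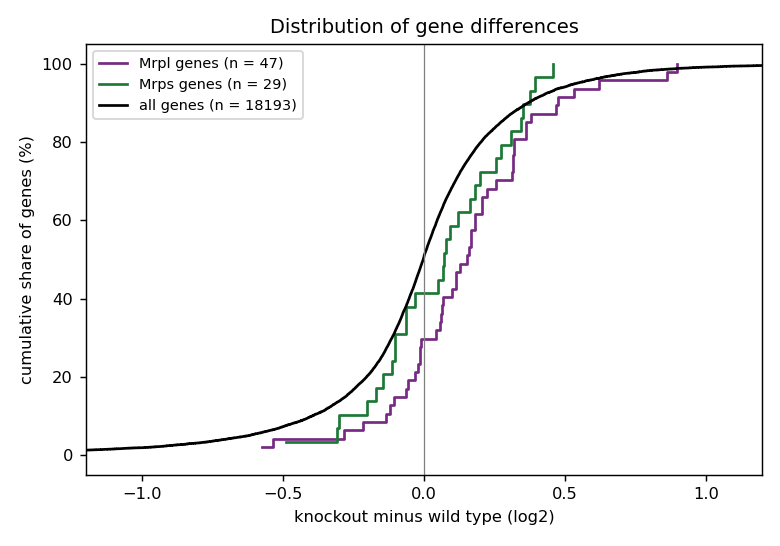
Cumulative share of genes (%) by knockout minus wild-type difference (log2, axis limited to -1.2 to 1.2) for Mrpl genes, Mrps genes and all genes. The Mrpl curve lies to the right of all genes at its centre (median 0.15 against -0.0027), and the Mrps curve crosses its centre between them (median 0.07).

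Of the members, 42 had more than 1 probe set, and in 28 of these all probe sets had differences of the same sign. Beside Mrpl3, single probe sets of Mrpl15, Mrpl21 and Mrpl49 passed (differences 0.62, 0.58 and 0.52), without a call for the gene mean. Mrpl15, read by 8 probe sets, ranged from -0.13 to 0.62. The probe sets of Mrpl38 (-0.23 to 0.57), Mrps14 (-0.29 to 0.35) and Mrpl34 (-0.14 to 0.37) also lay at least 0.5 apart. None of these 4 genes was called as a mean. Mrpl30 and Mrpl53 are read by probe sets shared with another gene and were not members.

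**Figure D4:**
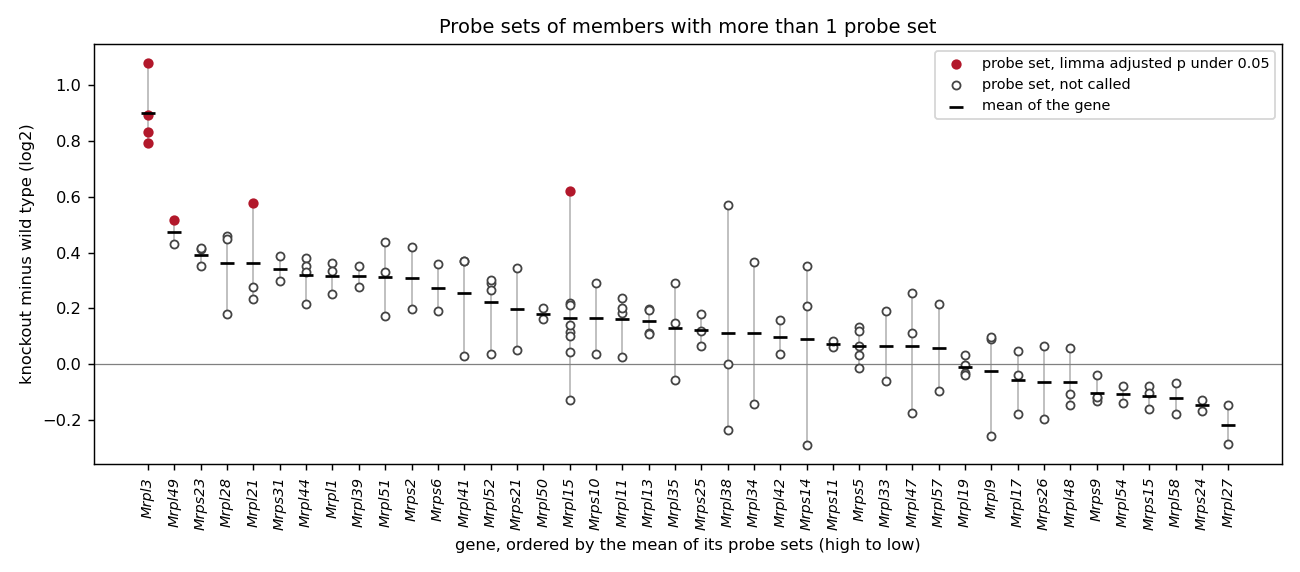
Knockout minus wild-type difference (log2) of each probe set of the 42 members with more than 1 probe set; filled points have limma adjusted p under 0.05 over all probe sets and bars mark the gene mean. All 4 probe sets of Mrpl3 are filled, and Mrpl38 and Mrpl15 have the widest spread.

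The other genes of mitochondrial translation went in several directions. Of 14 translation factors and mRNA-handling proteins, 2 rose: Lrpprc, which stabilises mitochondrial messenger RNAs, by 0.89 ± 0.12 (SE, limma adjusted p = 0.0215), and Mpv17l2, a ribosome-associated protein, by 0.63 ± 0.08 (limma adjusted p = 0.0192). Of 26 assembly and RNA-modifying factors, 3 rose and 3 fell. The share called was 14.3% of the translation factors and 23.1% of the assembly factors, against 12.2% of all genes. Trub2 (0.77), Fastkd2 (0.71) and Gtpbp10 (0.61) rose, the GTPase Gtpbp10 acting on the large subunit. The RNA methyltransferases Mrm1 (-0.52), Tfb1m (-0.50) and Nsun4 (-0.48) fell, Tfb1m being an enzyme that methylates the small-subunit RNA. The limma adjusted p of these 6 factors lay between 0.0251 and 0.0475, and the median of the list was -0.03. Fastkd2 and Tfb1m are named after their values were seen.

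Of 18 enzymes that charge mitochondrial transfer RNAs, 3 fell and 0 rose in the limma fit. The share called was 16.7%, against 12.2% of all genes. At an unadjusted p under 0.05, which 29.5% of all genes reached, the list had 3 positive and 6 negative differences. Its median was -0.13. The genes that fell were Sars2 (-0.52 ± 0.08 SE), Fars2 (-0.46 ± 0.08) and Wars2 (-0.43 ± 0.08). Sars2 starts head to head with Mrps12 within 1000 bases. It stood at -0.28 and -0.24 in knockout lines 2 and 4, against 0.24 and 0.28 in wild-type lines 5 and 6 (limma adjusted p = 0.0252), the opposite direction to Mrps12. In all, 25 members had such a divergent neighbour with a measured value.

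A list of ribosomal proteins with other names, which also named Oxa1l, not a ribosomal protein, had 5 measured genes outside the members. Of these, Dap3, a small-subunit GTP-binding protein, fell (-0.41 ± 0.08 SE, limma adjusted p = 0.0416) and 4 did not pass. Among 12 genes of mitochondrial DNA upkeep and transcription, the transcription factor Tfb2m rose (0.65 ± 0.08, limma adjusted p = 0.0183), Mterf2 (-0.70 ± 0.09) and the polymerase subunit Polg2 (-0.43 ± 0.08) fell, and 9 did not pass. Of 11 regulators of nuclear genes for mitochondria, limma called Gabpa, the DNA-binding subunit of an ETS-type activator, which rose by 0.54 ± 0.08 (limma adjusted p = 0.0236). The share called was 20% of the 5, 25% of the 12 and 9.09% of the 11, against 12.2% of all genes.

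The ribosome's products join nuclear-encoded subunits of the respiratory chain. Of 73 of these, Ndufs1 (0.52) and Ndufs7 (0.55) rose, Ndufv3 (-0.51) fell and 70 did not pass, with a median of 0.09. Differences over the 73 ran from -0.51 to 1.13, the highest in a gene that did not pass. The share called was 4.11%, against 12.2% of all genes. Relative to the wild-type mean, the median of the 73 was 0.10 and 0.10 in knockout lines 2 and 4. It was -0.06 and 0.06 in wild-type lines 5 and 6. The same medians for Mrpl genes were 0.16 and 0.12 in the knockout lines, against -0.07 and 0.07 in the wild-type lines. For Mrps genes they were 0.06 and 0.05 in the knockout lines, against -0.10 and 0.10 in the wild-type lines, so that line 6 lay above both knockout lines. Of 42 cytosolic ribosomal proteins limma called 0 (1 positive and 1 negative at an unadjusted p under 0.05), with a median of -0.04.

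**Figure D5:**
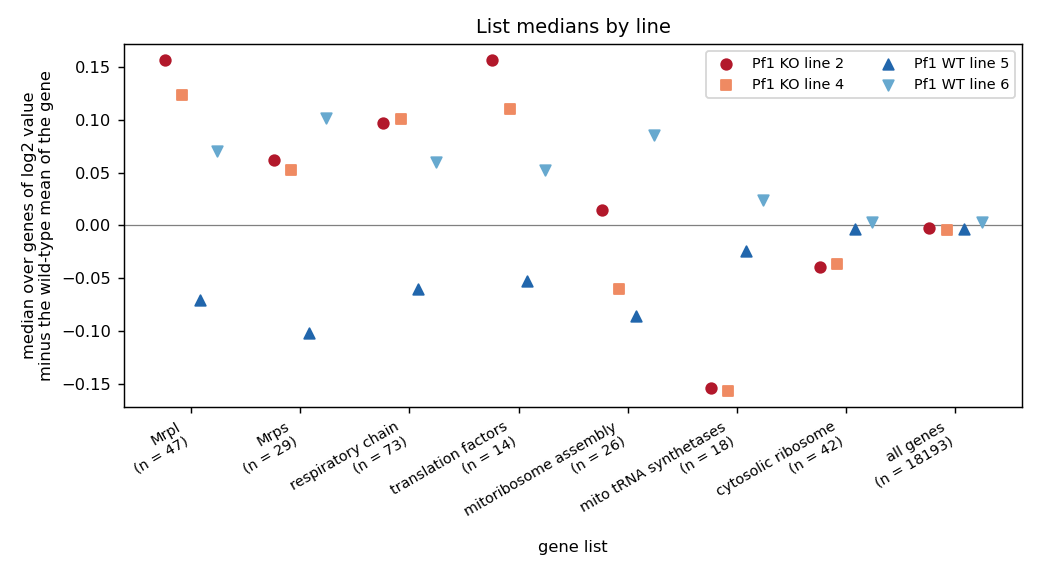
Median over the genes of a list of the log2 value minus the wild-type mean of the gene, by line, for lines 2 and 4 (Pf1 knockout) and lines 5 and 6 (wild type). For Mrps genes wild-type line 6 (0.10) lies above knockout lines 2 and 4 (0.06 and 0.05), and mitochondrial tRNA synthetases are lower in both knockout lines (-0.15 and -0.16) than in both wild-type lines (-0.02 and 0.02).

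RefSeq promoter windows, from 250 bases before to 50 after a start, were found for 67 of the 76 members (73 windows). Counted per gene, since the windows of a gene can overlap, the ETS letters CCGGAAG, on either strand, were in 37.3% of the 67 members, against 9.93% of all 27025 genes and 12.9% of protein-coding genes. The NRF1 core GCATGCGC was in 8 of the 67 members, against 3.05% of all genes and 3.94% of protein-coding genes. By subunit it was in 7 of 41 Mrpl genes (17.1%) and 1 of 26 Mrps genes (3.85%). The YY1 letters AAGATGGCG were in 8 of the 67 too, against 1.64% of all genes and 2.14% of protein-coding genes. The E-box CACGTG was in 7.46% of members, against 8.09% of all genes; counted per window it was in 9.59%, against 7.15%, because Mrpl2 has 3 overlapping windows that hold it. Mrpl2 is named after its values were seen. These motifs are those of activators known for nuclear genes of mitochondria, and a match describes letters only.

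Mrpl3 held the ETS letters 19 bases before its start, Mrpl22 held them 53 bases before and the NRF1 core 33 bases before, and Mrpl20 held an E-box 33 bases before. The windows of Mrpl23 and Mrpl24 held none of the 4 motifs. Among the called small-subunit genes, Mrps16, which fell, held the ETS letters at 2 places, Mrps12 held them once, and Mrps18c held them and an E-box. Members with the ETS letters had a median difference of 0.20 (25 genes, 4 called higher and 1 lower). Those without had 0.11 (42 genes, 1 higher and 2 lower), where 12.2% of all genes were called. With the NRF1 core the median was 0.12 (8 genes, 1 higher and 0 lower) and without it 0.13 (59 genes, 4 higher and 3 lower). For the YY1 letters it was 0.09 with (8 genes, 0 higher and 0 lower) and 0.16 without (59 genes, 5 higher and 3 lower). For the E-box it was 0.18 with (5 genes, 2 higher and 0 lower) and 0.13 without (62 genes, 3 higher and 3 lower). The differences between these groups were not tested.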

How the data were processed

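Total RNA of 4 MEF lines was labelled with biotin and hybridised to 1 Affymetrix array each. The deposited log2 values came from Affymetrix Expression Console and RMA, per the submitters' processing notes, without versions or a stated log base. Each probe set had been centred on its median over the 4 lines (0 within 5e-07), a step no label describes. Of 45101 probe sets, the gene means left out 64 controls and 932 that name several genes, and covered 18193 genes from 34945 probe sets. Names came from the annotation of the Mouse Genome 430 2.0 array, whose probe sets the table holds, although the series text names the smaller 430A array.

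The difference between genotypes was estimated in limma 3.58.1 (lmFit, eBayes; R 4.3.3) without covariates, with 2 residual and 3.04 prior degrees of freedom, and adjusted over all genes; a second fit covered 45037 probe sets. The number of arrays limits the precision, and 2 lines against 2 cannot reach an exact permutation p below 0.333. Members, lists, motifs and the naming rule were chosen with earlier results of these data known. Named genes were the called members, in each subunit the 8 with the smallest p and the 3 at each end of the differences, those with probe sets at least 0.5 apart, and Mrpl11, Mrpl12, Mrps12, Mrps18a, Mrps30 and Mrps36 for their roles, with Phf12 and up to 4 called genes of each other list. Alternatives were the median of probe sets, plain probe set IDs, quantile normalization, array weights, a robust prior, each line left out and subunits by structure.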

Additional observations from a re-analysis of the deposited data

How the results depend on the processing

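The called genes numbered 5 Mrpl and 3 Mrps genes under the median of the probe sets, array weights and subunits by structure. With plain probe set IDs Mrps12 was not called (limma adjusted p = 0.0520), and the robust prior added Mrpl28. Quantile normalization called 9 Mrpl genes (7 higher, 2 lower) and kept all 8 called members. The added genes were Mrpl18, Mrpl21, Mrpl28 and Mrpl49, Mrpl18 being named after its values were seen. Over all genes limma called 2664 after quantile normalization and 2344 with the robust prior, against 2212 in the fit used above. With 1 line left out, which leaves 1 array in a genotype and assumes it to vary like the others, limma called 0 Mrpl and 0 Mrps genes, with 8 to 20 Mrpl and 4 to 12 Mrps genes at an unadjusted p under 0.05. Over all genes the same fits called 0 to 321. The Mrpl median then ran from 0.075 (without wild-type line 5) to 0.22 (without wild-type line 6), and the Mrps median from -0.069 (without wild-type line 5, reversed) to 0.21 (without wild-type line 6). Differences near 0 changed sign: Mrpl34 was -0.0037 without knockout line 2 and 0.227 without knockout line 4, and Mrpl38 was -0.025 with the median of the probe sets. Without wild-type line 5, Mrpl38 was -0.033, Mrps14 -0.046 and Mrps30 -0.20, against 0.26, 0.23 and 0.076 without wild-type line 6. The causes of these changes were not tested. No detection calls were used here, so which members lay near background is unknown. No paired analysis was possible because the knockout and wild-type lines share no replicate number.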
